A study of Homo sapiens with 12 samples.

Results

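The 41 genes described here are interferon-stimulated genes and their STAT and IRF regulators: the IFIT, OAS, Mx, IFITM and GBP families, the RNA and DNA sensors, the ISG15 conjugation genes, nuclear body and TRIM genes, and single effectors such as IFI44, BST2 and LGALS3BP. They were taken by name, not by their values, and 41 of 41 were found among the 37471 genes of the table analysed here. Interferon-stimulated genes are grouped together because one complex drives many of them. Interferon binds its receptor, JAK kinases phosphorylate STAT proteins, and a complex that includes STAT2 and IRF9 binds a promoter element, the interferon-stimulated response element (ISRE). Epithelial tumour cells often keep a low, interferon-independent level of the same genes, which differs between cultures.

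The libraries were polyA RNA from CAL62, an established cell line from an anaplastic (undifferentiated) thyroid carcinoma. All 4 groups carried a doxycycline-inducible construct, 1 line expressing mature hsa-miR-139-5p and its isogenic partner a Scrambled control, and each line was sampled untreated (labelled control, 0 hours) and after doxycycline at 1 µg/ml for 96 hours, with 3 libraries in each group. The labels give no interferon treatment. They do not say how many clones a line came from, and doxycycline was given to both lines, so the agent itself is matched by the scrambled line. Values were FPKM, a level scaled to transcript length and to the size of the library. Each library also carried one of 3 column tags, C, NE or TR, each present once in every group. The sources do not say what a tag stands for.

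Across the 12 libraries the FPKM values summed to between 534216 and 664359, and 9518 to 9884 genes reached 1 FPKM. Depth in reads is not known from FPKM. MIR139, the miRNA's own gene, had a listed value of 0 throughout. HNRNPF, the gene that the series title names beside the miRNA, averaged 98.5 ± 13.7 FPKM (SD, n = 3) in the doxycycline-treated miR-139 line against 204.7 ± 28.8 untreated and 208.2 ± 32.6 and 215.8 ± 43.3 in the untreated and treated scrambled line. Its 3 treated miR-139 libraries lay below the other 9. Of the thyroid markers, PAX8 averaged 106.7 FPKM while NKX2-1 was listed at 0 and the highest TSHR value was 0.0128. PTPRC and CD3E, the defining leukocyte markers, were listed at 0 in every library. CD68, which many non-leukocytes also express, averaged 8.68 FPKM.

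Promoter sequences searched for the ISRE and 3′ UTR sequences searched for sites of the miRNA are shown first. RefSeq promoter windows (GRCh38.p14; 250 bases before to 50 after a start site) were found for 30 of the 41 members, and those of IFIT2, DHX58, MX2, OAS2, OASL, IRF7, USP18, PML, TRIM22, IFITM2 and GBP2 were not analysed here. The ISRE core was searched on both strands as GAAA, any 2 bases and GAAA again, with overlapping matches counted. It stood in at least 1 window of 19 of the 30 members (63.3%), against 1195 of 27305 genes with a promoter (4.38%). The GAS core, an element bound by STAT dimers, searched as TTCNNNGAA, was held by 8 of 30 members (26.7%) and 9.38% of all genes. A match is a description of the letters and not evidence of binding.

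Stretches of 7 of these promoters follow. They set members called lower in the NE libraries (IFIT1, IFIT3, IFI44) beside members not called lower with the values as deposited (IFIT5, ISG15, BST2, IFITM3). Capitals mark each core match, and a match on the opposite strand reads TTTC, 2 bases, TTTC. The windows lie at chr10:89392488-89392547 (IFIT1, plus strand), chr10:89327833-89327892 (IFIT3, plus), chr1:78649746-78649805 (IFI44, plus), chr10:89414539-89414598 (IFIT5, plus), chr1:1013362-1013421 (ISG15, plus), chr19:17405723-17405782 (BST2, minus) and chr11:320870-320929 (IFITM3, minus), GRCh38.p14, each printed 5′ to 3′ on the gene's strand.
IFIT1: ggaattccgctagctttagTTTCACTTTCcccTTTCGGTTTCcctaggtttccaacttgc
IFIT3: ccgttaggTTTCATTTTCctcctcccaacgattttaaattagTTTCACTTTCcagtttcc
IFI44: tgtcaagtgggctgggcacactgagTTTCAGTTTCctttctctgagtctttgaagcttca
IFIT5: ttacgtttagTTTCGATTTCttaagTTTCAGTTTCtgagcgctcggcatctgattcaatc
ISG15: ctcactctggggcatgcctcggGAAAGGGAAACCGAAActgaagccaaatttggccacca
BST2: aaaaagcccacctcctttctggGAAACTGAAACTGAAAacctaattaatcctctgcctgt
IFITM3: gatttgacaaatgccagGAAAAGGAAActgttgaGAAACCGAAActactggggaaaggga

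The mature miRNA (RefSeq, GRCh38.p14, chr11:72615102-72615124, minus strand) is shown with its seed, bases 2 to 8, in capitals. A site complementary to that seed, ACTGTAG, was looked for in the longest annotated 3′ UTR per gene (GENCODE 29, GRCh38), and 5 of the 41 members (12.2%) held it, against 869 of 7610 tested genes with a 3′ UTR (11.4%). The 41 include 6 members that were not tested, unlike the genes set beside them, and all 5 with a site were among the 35 tested. OAS2 held 2 sites, of which the first is shown, and OAS3, OASL, EIF2AK2 and TRIM25 held 1 each. These stretches are shown because a seed site is the sequence by which a miRNA commonly recognises a transcript. They are printed 5′ to 3′ with the site in capitals.
hsa-miR-139-5p: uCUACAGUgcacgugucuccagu
OAS2: aacttctcctACTGTAGcaacctgaaa
OAS3: atattagaccACTGTAGccgaatcaga
OASL: tagtcaggaaACTGTAGgaaagtaata
EIF2AK2: ataggaggagACTGTAGgaaatacaag
TRIM25: atccatagctACTGTAGgttctgtctt

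Levels of the members spanned a wide range. Means over the 12 libraries were above 100 FPKM for 4 members, from 10 to 100 for 13, from 1 to 10 for 18 and below 1 for 6. The highest was IFITM3, a membrane protein that blocks virus entry, at 247 FPKM with a range of 188 to 324. BST2 (tetherin, which holds budding virions at the cell surface) followed at 237, then IFITM2 at 137 and IFITM1 at 107. The ranges of IFITM3 and BST2 overlapped widely, so these neighbours did not differ beyond their spread. IFITM1, IFITM2 and IFITM3 are closely related in sequence, and how the authors assigned reads shared between them is not given in the sources used here.

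Below them, LGALS3BP, a secreted glycoprotein, averaged 63.1 FPKM, the DNA sensor IFI16 47.3, the RNA editing enzyme ADAR 45.8, and UBE2L6, the conjugating enzyme for ISG15, 36.6. The transcription regulators STAT2, IRF9 and IRF7 averaged 29.9, 17.8 and 11.8 FPKM. ISG15, the ubiquitin-like modifier itself, stood at 12.4. The IFIT and OAS families stood lower: IFIT family means lay between 4.24 (IFIT3) and 7.69 (IFIT5), and OAS family means between 1.52 (OAS1) and 7.59 (OAS3).

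The 6 members with a mean under 1 FPKM were not tested. Their highest values in any library were 1.28 for XAF1, 1.21 for IFI44L, 1.20 for IFI27, 0.876 for MX2, 0.474 for USP18 (the protease that removes ISG15) and 0.294 for RSAD2 (viperin). RSAD2 was listed at 0 in 3 libraries and USP18 in 1. The members together took 0.182% to 0.236% of the summed FPKM of a library. In bulk RNA, fewer cells expressing a gene and less of its RNA per cell cannot be told apart.

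**Figure D1:**
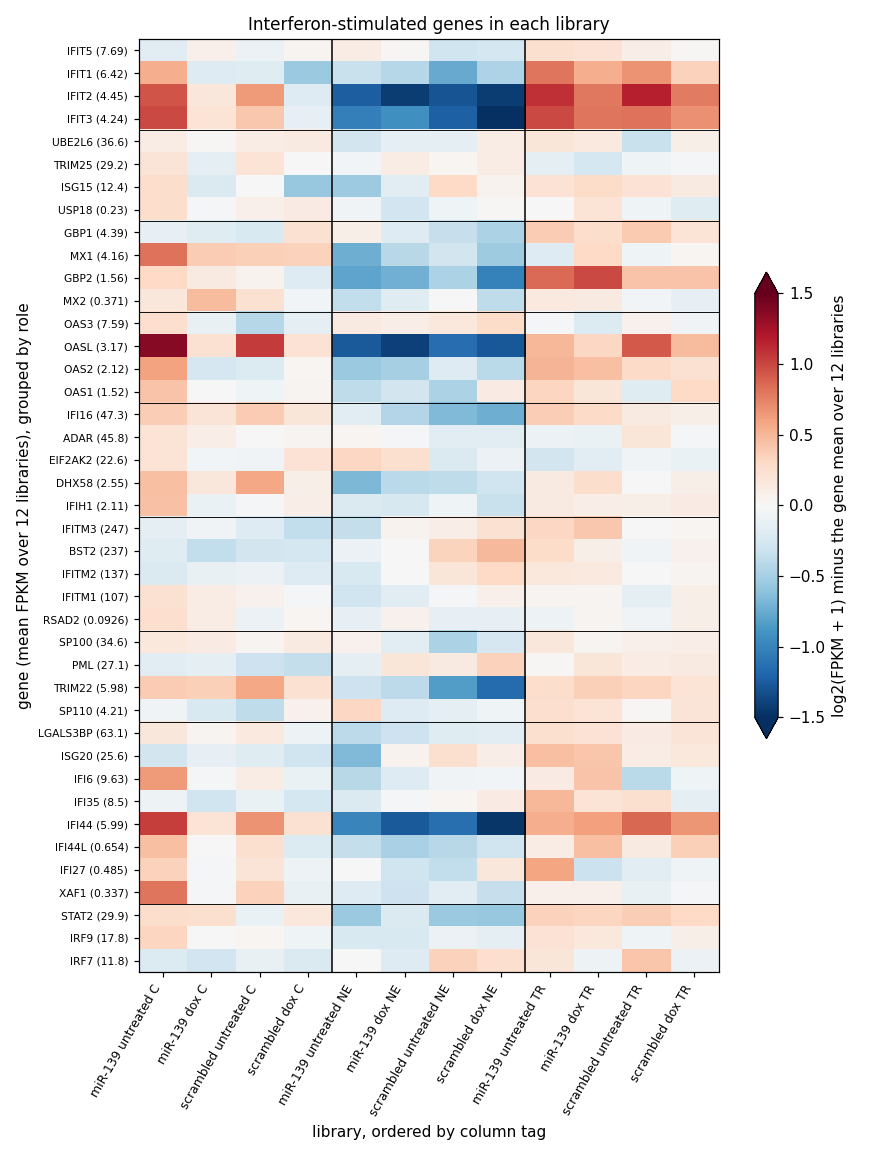
Each cell gives log2(FPKM + 1) of 1 member in 1 library minus that gene's mean over the 12 libraries (colour scale −1.5 to 1.5), with genes grouped by role, the mean FPKM in brackets and libraries ordered by column tag. IFIT2, IFIT3, OASL and IFI44 are low in all 4 NE libraries, whereas the rows of BST2, PML and the IFITM genes show no such block.

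The first question was whether doxycycline changed these genes in the miR-139 line. No member passed the test. Limma on log2(FPKM + 1) with group means alone called 0 of 35 tested members (0% of 9778 tested genes were called), with 0 members and 72 of all genes at an unadjusted p under 0.05. With the column tag as a replicate block it again called 0 members, where 0.0205% of all genes were called, and at an unadjusted p under 0.05 there were 3 members (8.57%) and 4.48% of all genes. Log2 differences were negative for 24 of 35 members, with a median of −0.10 against 0.00 over all tested genes.

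The 3 members with the smallest blocked p were IFIT2, OASL and IFIT1. IFIT2, which binds viral RNA and inhibits translation, was 7.43 (C), 0.861 (NE) and 8.37 FPKM (TR) in that line before doxycycline, and 3.96, 0.641 and 6.61 after it. OASL, an OAS relative without synthetase activity, was 7.85, 0.437 and 3.86 untreated and 3.03, 0.306 and 3.25 treated. IFIT1, the sensor of viral RNA that lacks cap methylation, was 9.17, 4.50 and 11.1 untreated and 5.10, 4.19 and 9.14 treated. Each of the 3 was lower with doxycycline in 3 of 3 tags, but the treated and untreated libraries overlapped for each of them. The log2 differences were −0.42 for IFIT2 (blocked SE 0.16), −0.49 for OASL (SE 0.20) and −0.36 for IFIT1 (SE 0.16), each with a blocked limma adjusted p that rounds to 1.00.

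For IFIT2 and OASL the step was widest in the C libraries. With doxycycline in the miR-139 line, OASL differed by −61.4% within C, −29.9% within NE and −15.7% within TR. IFIT2 differed by −46.7%, −25.5% and −21.1%. Over the tested members the median log2 difference in that line was −0.19 in C, with 30 of 35 negative, −0.04 in TR with 25 negative and 0.07 in NE with 16 negative. The corresponding medians of all tested genes lay between −0.01 and 0.02. Without the C libraries the blocked log2 differences were −0.24 for IFIT2 and −0.16 for OASL.

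The scrambled line received the same doxycycline, and IFIT2 and OASL were lower there too in 3 of 3 tags. IFIT2 was 5.83 (C), 0.792 (NE) and 8.84 FPKM (TR) untreated and 2.84, 0.644 and 6.54 after doxycycline, a log2 difference of −0.45 (blocked SE 0.16). OASL was 6.09, 0.556 and 5.52 untreated and 2.99, 0.427 and 3.76 treated, a log2 difference of −0.47 (SE 0.20). OAS1, an enzyme that makes oligoadenylates on sensing double-stranded RNA, differed the other way, at 1.35, 0.777 and 1.18 untreated and 1.53, 1.70 and 2.04 treated, or 0.40 (SE 0.17). All 3 had a blocked limma adjusted p of 0.998, and 0 of 35 members were called in this line with or without the block (background 0%). At an unadjusted p under 0.05 there were 0 members unblocked and 3 blocked, and 47 and 391 of all genes. The members' median was −0.02 with 20 of 35 negative, against 0.02 over all tested genes.

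Counted by direction alone, 12 of 35 members were lower with doxycycline in 3 of 3 tags in the miR-139 line (14.5% of all tested genes were) and 8 in the scrambled line (12.6%). Members higher in 3 of 3 tags numbered 2 in the miR-139 line (16.3% of all genes), PML and IFITM3, and 5 in the scrambled line (20.2%). IFIT2, OASL, IFI16 and IRF7 were lower in 6 of 6 tag pairs over both lines, where 2.59% of all tested genes were, and 0 members were higher in 6 of 6 (4.12%). These 4 were the same genes under upper quartile scaling and quantile normalization. IFI16 was 59.2, 40.6 and 59.5 FPKM untreated and 52.6, 33.4 and 55.9 treated in the miR-139 line, and 59.9, 28.4 and 50.3 untreated and 51.9, 27.2 and 48.5 treated in the scrambled line. IRF7, the regulator that amplifies interferon production, was 10.0, 11.6 and 13.4 then 9.41, 10.1 and 10.97 with treatment in the miR-139 line. Its scrambled values were 10.7, 15.04 and 15.9 then 9.92, 14.1 and 10.9.

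Because IFIT2 and OASL leaned the same way in both lines, the mean doxycycline difference of both lines was added after these values were seen. Untreated libraries are labelled 0 hours and treated ones 96 hours, so a difference that both lines share cannot be told apart from time in culture. It was −0.43 for IFIT2 (blocked SE 0.12, limma adjusted p = 0.671), −0.48 for OASL (SE 0.14, adjusted p = 0.765) and −0.33 for IFI44 (SE 0.11, adjusted p = 0.857). No member was called (0.0205% of all genes were with the block, 0% without), and blocked unadjusted p-values under 0.05 numbered 6 among members, or 17.1%, against 5.35% of all genes. Without the C libraries IFIT2 and OASL stood at −0.25 and −0.23, and without the NE libraries at −0.57 and −0.65.

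**Figure D2:**
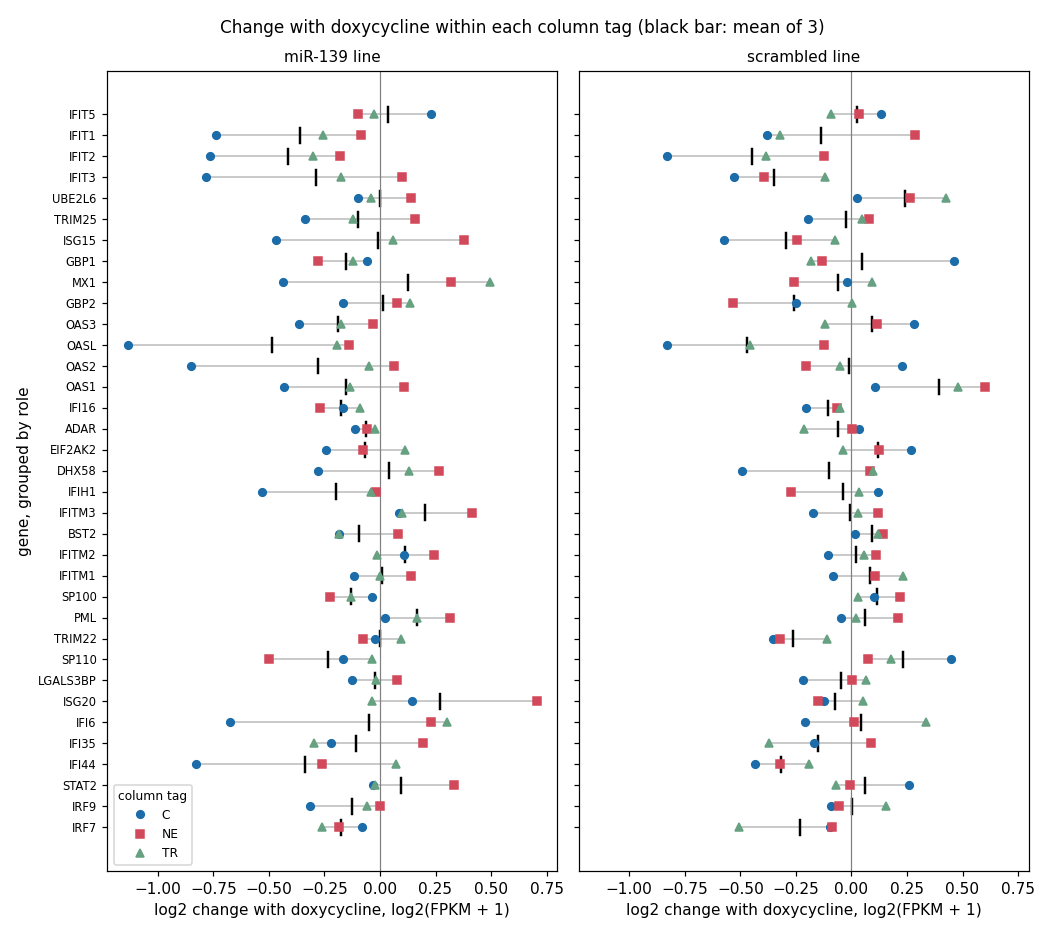
Log2 change in FPKM + 1 with doxycycline for each tested member (rows, grouped by role), the miR-139 line in the left panel and the scrambled control in the right, with 1 point per column tag and a black bar at the mean of 3. IFIT2 and OASL lie left of 0 at all 3 points in both panels, and their C points lie farthest from 0.

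Members with and without a seed site were set side by side, without a test. In the miR-139 line the 5 tested members with a site had a median doxycycline difference of −0.19 against −0.06 for those without one, and in the scrambled line −0.01 against −0.04. For the interaction the medians were −0.19 with a site and 0.02 without. OAS2, with 2 sites, was 3.56, 1.04 and 3.27 FPKM untreated and 1.53, 1.13 and 3.12 with doxycycline in the miR-139 line. OAS2 was thus lower in C and TR and higher in NE. OAS3 was 9.15, 8.33 and 7.34 untreated and 6.88, 8.14 and 6.38 treated in that line, lower in 3 of 3 tags but with overlap. In the scrambled line OAS3 was lower in TR and higher in C and NE. OASL, described above, was lower in 3 of 3 tags in both lines. EIF2AK2, the kinase PKR, and TRIM25, the ligase that activates RIG-I, each overlapped between treated and untreated libraries. Neither was lower in 3 of 3 tags in either line.

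The second question was whether the lines differed in their response, and no member passed it. Limma called 0 of 35 members for the interaction, blocked (0.0102% of all genes) or not (0%). At an unadjusted p under 0.05 there were 2 members blocked and 0 unblocked, against 336 and 41 of all genes. The median was −0.02 for members and for all tested genes. SP110, a nuclear body protein, had the smallest blocked p, with a difference between the lines' changes of −0.47 (blocked SE 0.18, limma adjusted p = 1.00). It was 3.96, 5.39 and 5.12 FPKM untreated and 3.41, 3.51 and 4.97 treated in the miR-139 line, and 2.97, 3.70 and 4.23 then 4.41, 3.95 and 4.91 in the scrambled line. OAS1 followed at −0.55 (SE 0.24) and SP100 at −0.25 (SE 0.14).

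The third question compared the lines at the same treatment. After doxycycline 0 of 35 members were called, blocked (0.112% of all genes, 0.0716% higher and 0.0409% lower in the miR-139 line) or not (0%), and before it 0 members and 0% of all genes in both fits. Unadjusted p under 0.05 was reached by 3 members after doxycycline and 5 before it with the block, against 702 and 435 of all genes, and by 0 members without it, against 105 and 58 of all genes. Before doxycycline 24 of 35 members had a positive difference, miR-139 minus scrambled, and the median was 0.10 against 0.00 for all tested genes. Without the C libraries that median was −0.03. The members nearest the threshold then were IFIT1 at 0.43 (blocked SE 0.16), SP100 at 0.25 (SE 0.10) and SP110 at 0.33 (SE 0.13), each with a blocked limma adjusted p of 0.928. After doxycycline they were GBP2 at 0.39 (SE 0.17, adjusted p = 0.635), IFIT3 at 0.38 (SE 0.17, adjusted p = 0.655) and TRIM22 at 0.35 (SE 0.16, adjusted p = 0.679).

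These counts did not turn on the NE libraries. With the NE libraries left out, blocked limma called 0 members in each of the 6 group comparisons, and the medians were −0.10 and −0.03 for doxycycline with miR-139 and with the scrambled construct, −0.07 for the interaction, 0.07 and 0.13 for the lines with and without doxycycline and −0.07 for both lines' mean.

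The widest differences among the libraries followed the column tags. With the 4 groups as covariate, 20 of 35 tested members differed between the 4 NE libraries and the 8 C and TR libraries at a limma adjusted p under 0.05. That total was near the background of 52.0%, but its direction was uneven: 18 members were lower in NE (24.0% of all tested genes were) and 2 were higher (28.0% of all genes were). The filter, the same for all genes, was a mean of at least 1 FPKM over all 12 libraries. IFIT2, OASL and GBP2 stayed under 1 FPKM in every NE library, so their C and TR values brought them into the test. Their mean FPKM could thus only be lower in NE. The members' median was −0.26 against 0.02 for all tested genes. In 4 of 4 groups 19 of 35 members were lower in NE, and the matching share of all tested genes was not computed. Under upper quartile scaling 22 members were called lower and 0 higher, and under quantile normalization 19 and 1. The shares of all tested genes called lower or higher under these scalings are not reported here. Upper quartiles were 38.1 to 41.8 FPKM in the NE libraries and 36.4 to 37.2 in the others, so upper quartile scaling lowers NE values relative to the rest. Over all called genes the share that was higher in NE went from 53.9% as deposited to 39.7% with upper quartile scaling. What sets the NE libraries apart was not tested.

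On the log2(FPKM + 1) scale IFIT2, OASL, IFI44 and IFIT3 had the widest differences among the tested members. IFIT2 ranged from 0.641 to 0.861 FPKM in NE and from 2.84 to 8.84 in C and TR, a mean of 0.734 ± 0.1096 (SD, n = 4) against 6.30 ± 2.06 (SD, n = 8), or 88.3% lower (log2 −2.02, SE 0.12, adjusted p = 2.21e-07). OASL ranged from 0.306 to 0.556 in NE and from 2.99 to 7.85 elsewhere, or 90.5% lower (log2 −1.90, SE 0.15, adjusted p = 1.92e-06). IFIT3, a partner of IFIT1, ranged from 0.441 to 1.33 and from 3.05 to 7.75, or 83.7% lower (log2 −1.79, SE 0.12, adjusted p = 7.01e-07). No NE library of these genes overlapped any C or TR library. IFI44, a cytoplasmic protein of the same response, ranged from 1.17 to 1.98 against 5.88 to 11.2, or 80.6% lower (log2 −1.82, SE 0.12, adjusted p = 4.35e-07), again without overlap.

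The rest of the IFIT family was not uniform. IFIT1 was 4.50, 4.19, 3.12 and 4.03 FPKM in the NE libraries of the untreated and treated miR-139 line and the untreated and treated scrambled line, against 3.71 to 11.1 in C and TR. It fell by 0.74 on the log2 scale (SE 0.12, adjusted p = 0.000247), with an overlap at the treated scrambled C library. The difference was −1.09 without the C libraries and −0.40 without the TR libraries, and was called in both. IFIT5, whose promoter holds 3 ISRE cores of which 2 are shown above, ranged from 6.02 to 8.32 in NE and from 6.76 to 9.18 elsewhere, a difference of −0.17 (SE 0.09, adjusted p = 0.138) that did not pass. It did pass under upper quartile scaling.

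In the OAS family, OAS2 was lower in NE by 50.2% (log2 −0.62, SE 0.14, adjusted p = 0.00266) and OAS1 by 36.1% (log2 −0.38, SE 0.13, adjusted p = 0.0205). OAS3 was the exception, at 8.14 to 9.26 FPKM in NE and 5.32 to 9.15 in C and TR. Its difference of 0.25 (SE 0.11, adjusted p = 0.0629) did not pass as deposited and did under quantile normalization. The call of OAS1 was lost under quantile normalization, with no filter, without the TR tag and without the NE library of either miR-139 group or of the untreated scrambled group, where the highest adjusted p was 0.129.

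Among the GTPases, GBP2 ranged from 0.162 to 0.680 FPKM in NE and from 1.05 to 3.63 elsewhere, or 81.1% lower (log2 −1.12, SE 0.13, adjusted p = 1.5e-05), with no overlap. MX1, which traps incoming viral ribonucleoproteins, ranged from 1.96 to 3.08 and from 3.30 to 7.66 and fell by 0.73 (SE 0.13, adjusted p = 0.000392), also without overlap. GBP1 differed by −0.35 (SE 0.12, adjusted p = 0.0237). Its call was lost under quantile normalization, with no filter, without the TR tag and without either scrambled NE library, with an adjusted p of up to 0.408, and its difference ran from −0.54 to −0.15 with tags or libraries left out.

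Of the 5 sensors, 3 were called lower in NE. The DNA sensor IFI16 was 27.2 to 40.6 FPKM in NE and 48.5 to 59.9 elsewhere, or 40.8% lower (log2 −0.75, SE 0.08, adjusted p = 8.24e-06), without overlap. DHX58 (LGP2), a RIG-I-like receptor, ranged from 1.17 to 1.80 against 2.42 to 4.16, or 49.1% lower (log2 −0.66, SE 0.12, adjusted p = 0.00058). IFIH1 (MDA5), a sensor of long double-stranded RNA, differed by −0.32 (SE 0.11, adjusted p = 0.0257), a call lost in 9 of 19 alternatives. ADAR (−0.12, adjusted p = 0.184) and EIF2AK2 (0.09, adjusted p = 0.46) did not pass. ADAR did pass as lower under both upper quartile scaling and quantile normalization.

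The regulators of the response differed too. STAT2 was 19.4, 24.8, 19.4 and 19.3 FPKM in NE and 26.9 to 37.6 in the other 8 libraries, or 39.9% lower (log2 −0.71, SE 0.08, adjusted p = 1.4e-05), without overlap. IRF9 ranged from 14.98 to 16.5 in NE and from 16.8 to 22.3 elsewhere, or 17.5% lower (log2 −0.26, SE 0.08, adjusted p = 0.0162). The call of IRF9 was lost without the C tag, without the TR tag and without the NE library of either miR-139 group (highest adjusted p 0.0712). IRF7 did not pass (0.15, adjusted p = 0.181).

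The nuclear body and TRIM genes split. TRIM22, an antiviral ligase, ranged from 1.95 to 4.30 FPKM in NE against 6.62 to 8.87, or 55.9% lower (log2 −1.01, SE 0.12, adjusted p = 2.18e-05), without overlap. SP100 was 19.5% lower (log2 −0.32, SE 0.07, adjusted p = 0.00242). PML, the organizer of these nuclear bodies, was higher in NE by 0.20 (SE 0.08, adjusted p = 0.0492), but its ranges of 24.5 to 34.4 and 20.7 to 30.6 overlapped and its call was lost in 15 of 20 alternatives. SP110 differed by −0.03 (adjusted p = 0.823).

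Among the most abundant members the differences over all 4 groups were small, but signs differed between groups for BST2 and the IFITM genes. In the untreated and treated miR-139 line and the untreated and treated scrambled line, IFITM3 differed by −0.45, −0.12, 0.20 and 0.40. BST2 differed by −0.13, 0.13, 0.51 and 0.58 in that order, with 1 NE library in each group. BST2 was 220 to 327 FPKM in NE and 181 to 283 elsewhere, higher by 0.27 (SE 0.10, adjusted p = 0.0341), and that call was lost in 12 of 20 alternatives, among them upper quartile scaling and quantile normalization. IFITM3, IFITM2 and IFITM1 differed by 0.01, 0.10 and −0.15 (adjusted p = 0.962, 0.359 and 0.146), and IFITM1 passed as lower under both scalings. Quantile normalization turned IFITM2 to −0.09, short of the threshold, and IFITM3 to −0.22 (adjusted p = 0.0181), a call. LGALS3BP was 24.5% lower (log2 −0.40, SE 0.07, adjusted p = 0.000435) with no overlap. Of the ISG15 group, ISG15 (−0.13), TRIM25 (0.08) and UBE2L6 (−0.17) did not pass, and UBE2L6 did as lower under both scalings. IFI6 (−0.26), ISG20 (−0.10) and IFI35 (−0.03) did not pass either.

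**Figure D3:**
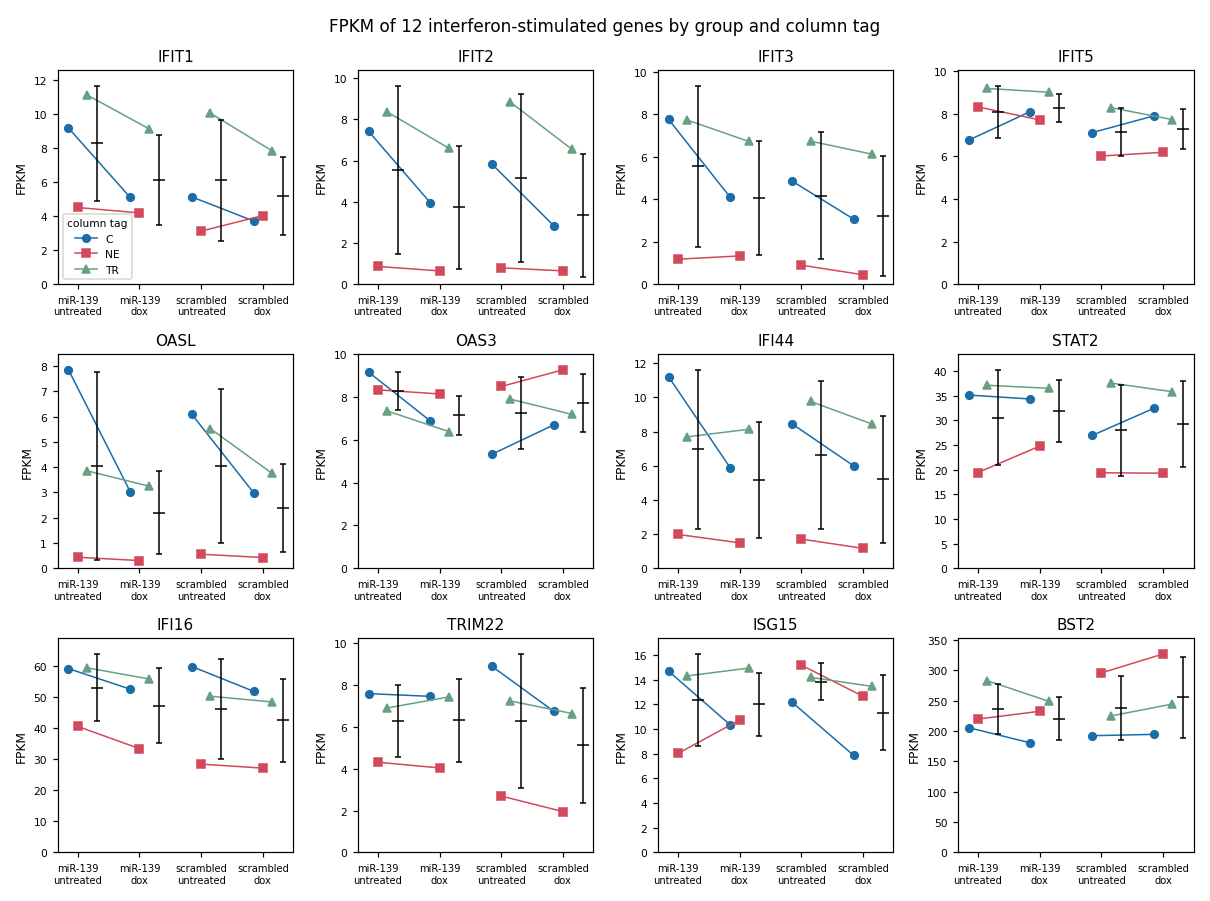
FPKM of 12 members by group (x axis) for the C (circles), NE (squares) and TR (triangles) libraries, where a line joins 2 libraries of the same tag and cell line and black bars mark the mean ± SD of a group (n = 3). IFIT2, IFIT3, OASL and IFI44 show NE values below all others, IFIT5, OAS3 and ISG15 do not, and BST2 reaches its highest value, 327 FPKM, in an NE library.

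Without overlap between NE and the other 8 libraries, 14 of the 41 members lay below. Of those, 12 were among the 35 tested, where 10.0% of all tested genes lay below, and the other 2 were IFI44L and XAF1. The 12 include IFIT2, OASL and GBP2, which were tested through their C and TR values. No member lay entirely above, against 14.0% of all tested genes. The number of members at 1 FPKM or more was 30 to 32 in the NE libraries, 35 to 37 in C and 35 to 36 in TR. Over all genes that number was also lowest in NE, at 9518 to 9633 against 9804 to 9870 in C and 9803 to 9884 in TR. The NE difference was seen in each group: the median over the tested members was −0.51 in the untreated and −0.24 in the treated miR-139 libraries, and −0.24 and −0.19 in the untreated and treated scrambled line, against 0.01 to 0.04 for all tested genes. OAS3 alone was higher in NE in 4 of 4 groups, and BST2, IRF7 and PML in 3 of 4. Another 10 members were lower in 2 groups and higher in 2. For ISG15, ISG20, IFI6, IFITM1, IFITM2 and IFITM3 the lower groups were both of the miR-139 line and the higher ones both of the scrambled line. EIF2AK2 was the reverse, and IFI35, SP110 and TRIM25 did not split by line. Each group holds 1 NE library. The shares of all tested genes with these patterns were not computed.

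ISRE cores could be set beside the NE difference for the 26 tested members with a promoter window. The median NE difference was −0.21 for the 16 tested members with a core and −0.21 for the 10 tested members whose promoter windows held none, with 7 and 5 of them called lower. The 9 tested members without a window include IFIT2, OASL, GBP2, TRIM22, DHX58 and OAS2, which are 6 of the 18 called lower. The 5 tested members with a seed site had a median of 0.08 and those without one −0.29.

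The C and TR libraries also differed from each other. Limma called 9 of 35 members, all 9 lower in C (8.49% of all tested genes were) and 0 higher (8.16%), with a median of −0.14 against 0.01 for all tested genes. IFIT1 was 9.17, 5.10, 5.13 and 3.71 FPKM in C and 11.1, 9.14, 10.1 and 7.83 in TR, in the order untreated and treated miR-139, untreated and treated scrambled. Each C library was below its TR partner, and IFIT1 fell by 0.69 (SE 0.14, adjusted p = 0.00571). IFIT2 differed by −0.57 (SE 0.14, adjusted p = 0.0164), GBP2 by −0.60 (SE 0.14, adjusted p = 0.0138) and IFIT3 by −0.45 (SE 0.14, adjusted p = 0.0462).

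The other 5 called lower in C were ISG20, an RNA exonuclease (−0.50), IFI35 (−0.39), IFITM3 (−0.38), BST2 (−0.37) and PML (−0.36), with adjusted p from 0.0201 to 0.0493. OASL (0.16, adjusted p = 0.549) and IFI44 (−0.14, adjusted p = 0.533) did not pass here. MX1 had a difference of the other sign (0.46, adjusted p = 0.0501), which quantile normalization made a call (0.46, adjusted p = 0.0455), with 11 members lower and 1 higher. The number called ranged from 3 to 14 when single libraries or the NE tag were left out. It fell to 3 without the C library of either scrambled group or the TR library of the treated miR-139 line, to 4 without the C library of the treated miR-139 line and to 5 without the TR library of the untreated one. With no filter on low values IFIT1 was the 1 member called. The shares of all genes called between C and TR in these alternatives are not reported here.

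**Figure D4:**
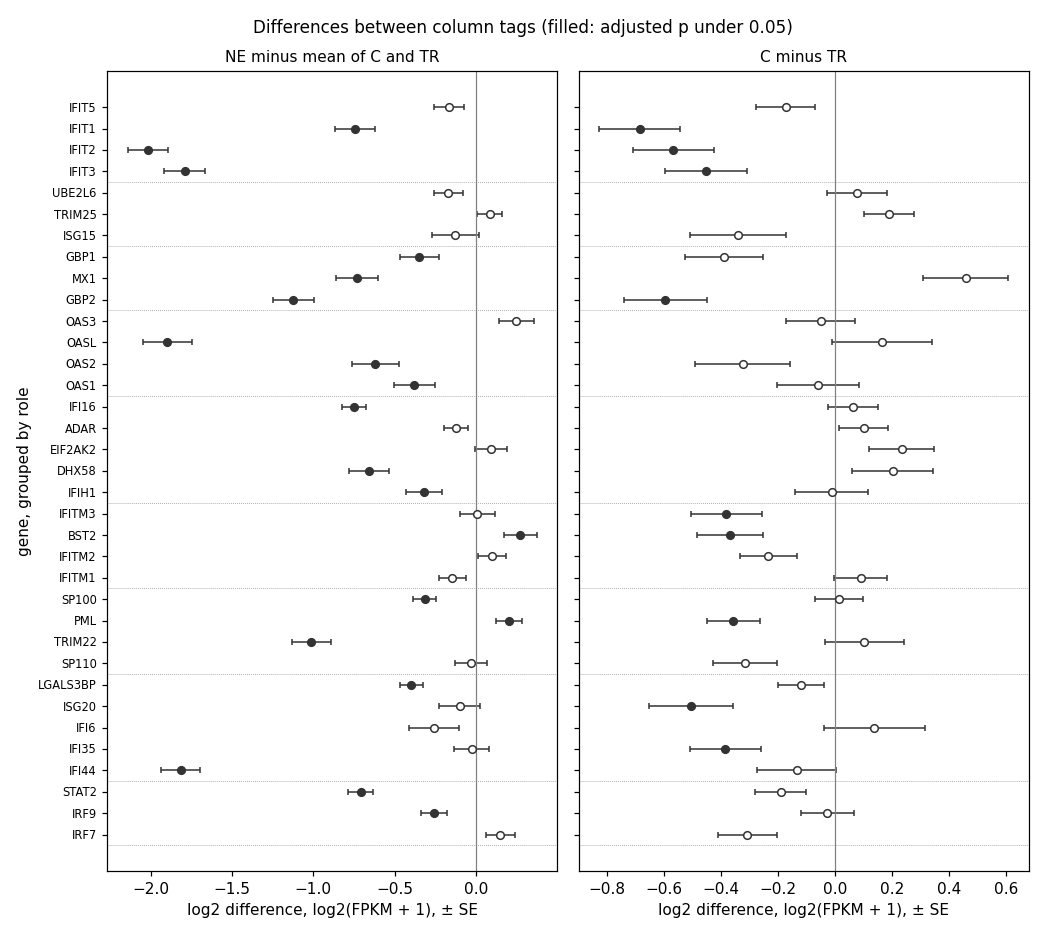
Log2 differences in FPKM + 1 (± SE) of the 35 tested members between NE and the mean of C and TR (left) and between C and TR (right), grouped by role, with filled points at an adjusted p under 0.05. On the left 18 filled points lie below 0 and 2 above, and on the right all 9 lie below 0.

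Other genes of the pathway were read from 6 lists, of which the negative regulators include the members USP18 and ISG15. Of 12 interferon ligands 4 were in the table analysed here, none of them a type I interferon, so levels of type I ligands were not read. Of these 4, IFNG was listed at 0 in every library and the highest value of any was 0.513 FPKM, for IFNL3. Of the receptor and signalling genes, 9 of 13 were in the table and tested. IFNGR2, TYK2 and JAK1 averaged 50.7, 38.9 and 32.7 FPKM, and the type I receptor chains IFNAR1 and IFNAR2 averaged 14.2 and 9.66. In NE, JAK1 was lower (log2 −0.24, SE 0.07, adjusted p = 0.013), while STAT3 was higher by 0.22 (SE 0.06, adjusted p = 0.0122), a call lost under upper quartile scaling.

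Of the sensors and adaptors, 12 of 17 were in the table and 9 were tested, with IRF3, MAVS, TANK and TRAF3 highest at 55.4, 28.5, 24.6 and 18.0 FPKM. In NE the kinase TBK1 (−0.41, adjusted p = 0.000521) and its adaptor TANK (−0.48, adjusted p = 7.8e-05) were lower, and IRF3 (0.21, adjusted p = 0.0306) and TRADD (0.40, adjusted p = 0.00229) were higher, the call of IRF3 being lost under both scalings.

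Of 46 further interferon-stimulated genes 24 were in the table and 22 tested, and in NE they split, with 9 lower and 7 higher. Among the lower ones were SLFN5 (−1.14), APOL1 (−1.06), RNF213 (−0.80), PHF11 (−0.69), APOL6 (−0.59), ZNFX1 (−0.38), NMI (−0.35) and GBP3 (−0.35). The higher ones were IFI30 (1.62), TRIM21 (0.57), SLFN11 (0.40), BATF2 (0.37), CNP (0.31), SAMHD1 (0.25) and APOL2 (0.23), of which SAMHD1 and APOL2 lost the call under upper quartile scaling. Thus 12 were lower and 5 higher with that scaling. As deposited, where 9 were lower and 7 higher, 24.0% of all tested genes were lower and 28.0% higher in NE. The shares of all tested genes under upper quartile scaling are not reported here. PSME2 (0.30) was the 1 of 5 tested antigen presentation genes called. Under quantile normalization that call was lost, and B2M (−0.33, adjusted p = 0.000839) and PSME1 (−0.16, adjusted p = 0.049) were called lower. Of 6 tested negative regulators PIAS1 (−0.34) and PTPN11 (−0.27) were lower. B2M averaged 935 FPKM, and its difference as deposited did not pass (−0.09, adjusted p = 0.479). In the doxycycline comparisons of either line, blocked limma called 0 genes of these 6 lists.

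Markers of other cells were read beside the tag difference. Of 6 leukocyte markers in the table, PTPRC and CD3E were at 0 and LYZ and ITGAM reached at most 0.153 FPKM, so that the list's summed level, 7.92 to 11.6 FPKM in NE, 9.97 to 12.6 in C and 5.46 to 6.99 in TR, was almost all CD68. Of 4 fibroblast markers COL3A1 was at 0, and the sum, nearly all COL1A1, was 41.6 to 57.2 in NE, 33.3 to 58.5 in C and 83.9 to 101 in TR. Of 4 keratinocyte markers KRT1 and KRT5 were at 0 and KRT10 made up the sum, at 16.8 to 22.3 in NE, 9.97 to 11.9 in C and 13.1 to 16.3 in TR. The 3 endothelial markers summed to at most 3.09 FPKM, mostly ESAM. PAX8 was 113 to 142 FPKM in NE, 56.0 to 92.1 in C and 109 to 133 in TR. The part of these differences in the members' values was not tested.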

How the data were processed

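The authors deposited FPKM values per gene from polyA libraries of CAL62. Per the submitters' processing notes, the aligners were among STAR 2.5, Bowtie 1.0.0 and TopHat2 2.0.10, with Cufflinks, HTSeq, SAMtools and FastQC also listed and GRCh37 or hg19 as the build. Which of them made the FPKM is not given in the sources used here. Their protocol describes a directional kit, and whether counting used strand is not given in the sources used here. Columns gave a group and a tag, not the letter of a sample title, so libraries were assigned to groups by column name.

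Log2(FPKM + 1) values were tested with limma (version 3.58.1, R version 4.3.3) over 9778 genes with a mean of at least 1 FPKM, two-sided, with a variance trend and Benjamini-Hochberg adjustment over all of them (threshold 0.05). For low genes the added 1 makes fold changes smaller than they are in FPKM. One fit of 4 group means gave 5 comparisons, and a second with group as covariate gave the 2 tag contrasts. Same-tag libraries of different groups deviated together from their group means (18 pairs, r 0.33 to 0.86, median 0.63). The tag thus pairs the libraries and served as a replicate block. For 36 pairs with different tags r was −0.66 to 0.14. Deviations within a group of 3 libraries sum to 0, so that range is not an independent comparison. The labels do not say which libraries came from separate cultures, so the p-values speak only of the spread from library to library, part of which may be technical. No 2 libraries held identical values.

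The members, lists and comparisons were chosen with earlier results of these data known. Named with full statistics were members called in a comparison, and otherwise the 3 with the smallest blocked p. Of the other pathway genes, those called in NE and the 4 highest receptor and sensor genes were to be named, and some are not reported here. IFNAR1, IFNAR2, IFNL3, IFNG and B2M were chosen after their values were seen. Alternatives added after seeing the data were the mean of both doxycycline changes and the block without the C or the TR libraries. Upper quartile scaling, quantile normalization, a pseudocount of 0.1, filters of none and 5 FPKM, no variance trend, and leaving out tags or libraries were also tried.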

Additional observations from a re-analysis of the deposited data

Results flagged for a closer look

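The lines moved in opposite directions with doxycycline in 3 of 3 tags each for 2 members, SP100 and SP110, and 3.97% of all tested genes did so. Both were lower in the miR-139 line and higher in the scrambled line. The difference between the lines' changes was −0.25 on the log2 scale for SP100 (blocked SE 0.14) and −0.47 for SP110 (blocked SE 0.18), and neither passed blocked limma over all genes (adjusted p = 1.00). Both genes stayed opposite under upper quartile scaling and quantile normalization, the second of which added IFITM3.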

How the results depend on the processing

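With the tag as a replicate block, 0 members were called in each of the 6 group comparisons, as without it, so the block changed no call. Leaving out tags or single libraries moved the unblocked medians from −0.21 to 0.067 for doxycycline in the miR-139 line, −0.10 to 0.068 in the scrambled line, −0.22 to 0.10 for the interaction and −0.078 to 0.15 for the lines after doxycycline. Single genes turned direction in the same way: IFIT2 from −1.17 to 0.22 and OASL from −1.22 to 0.094 in the miR-139 line, IFIT2 from −1.18 to 0.12 and OASL from −1.18 to 0.066 in the scrambled line, and GBP2 from −0.032 to 0.82, IFIT3 from −0.25 to 0.90 and TRIM22 from −0.11 to 0.59 between the treated lines. Each such turn came from taking 1 library away, which leaves a group unbalanced over the tags. In NE against C and TR, 10 members were called at a mean of at least 5 FPKM, where 24 were tested. Between C and TR 1 was called with no filter, and 3 to 14 with libraries left out. The shares of all genes called in these alternatives are not reported here, so these counts cannot be set against a background. All other alternatives for these counts stayed within 1.5 times the reported value. In every alternative in which they were tested, DHX58, GBP2, IFI16, IFI44, IFIT1, IFIT2, IFIT3, LGALS3BP, MX1, OAS2, OASL, SP100, STAT2 and TRIM22 kept the NE call, though DHX58, GBP2, IFIT2, IFIT3, MX1, OAS2 and OASL were not tested under the filter of 5 FPKM, and GBP2 not without the TR tag either. FPKM hold no read counts, so the counting error behind values under 1 FPKM is unknown.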
